A study of Mus musculus with 6 samples.

Results

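The histone genes of N2a cells were examined in RNA sequencing data from cells transfected with a control siRNA (si-NC) or with an siRNA against the circular RNA circRtn4 (si-circRtn4). Members were the protein-coding genes whose symbols begin with Hist1h to Hist4h, H1f, H2af or H3f3. This rule found 80 of the 22046 protein-coding genes and of the 54532 genes listed. It gave 67 clustered genes and 13 variant genes. The clustered genes lay mostly on chromosome 13, with 54 genes, and on chromosome 3, with 10 genes. A further 2 lay on chromosome 11 and 1 on chromosome 6.

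N2a (Neuro2A) is an established mouse neuroblastoma cell line of clonal origin, and the labels give its strain as C57BL/6. Each siRNA was represented by 3 libraries. The study's methods state for siRNA-transfected N2a cells in general that the medium was changed after a day to one with retinoic acid, which differentiates them, and that cells were collected 2 days later. The labels of these libraries name only the growth medium and no time, so either state is possible. Nothing in the labels says that the libraries came from separate cultures, so p-values measured only the spread between these libraries, which may be technical. The study asked which genes depend on circRtn4, which it described as a sponge of the microRNA miR-24-3p. The values were per gene, so circRtn4 itself was not analysed here.

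Histones are the proteins around which DNA is wound. The clustered genes are replication-dependent: they supply the H1, H2A, H2B, H3 and H4 proteins that package new DNA during S phase. Their mRNAs usually end in a conserved stem-loop instead of a poly(A) tail, and stem-loop binding protein (SLBP) holds this element during processing, export and translation. The variant genes are mostly expressed throughout the cell cycle, and their mRNAs are usually polyadenylated. They encode histones with special places in chromatin, such as the replacement histones of active genes and the linker histones of cells that have stopped dividing. Some clustered genes can also make polyadenylated mRNAs that run past the stem-loop, mainly in differentiating cells. How the RNA was selected for the libraries was not given in the sources used here.

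The stem-loop is shown first, because it was found in most clustered genes with an annotated 3′ UTR and in few other genes. The search was for a stem of 6 base pairs that opens with GG and closes with CC, around a loop of 4 bases that begins with TTT. It ran on the transcript strand of the longest annotated 3′ UTR of each gene, so a stem-loop in another transcript was not looked for. A 3′ UTR was annotated for 54 of the 67 clustered and 10 of the 13 variant genes, and the stem-loop was found in 43 of these 54 and in 1 of these 10. Over all 21025 protein-coding genes with an annotated 3′ UTR, it was found in 99, or 0.471%. These 99 include the 43 clustered genes and the 1 variant gene, so more of them lay outside the members than within. The 5 stem-loops below belong to genes described later, and capitals mark the 16 bases of the stem-loop in the GRCm38 genome.
Hist1h1c, chr13:23739507-23739532, plus strand: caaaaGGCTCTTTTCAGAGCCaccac
Hist3h2ba, chr11:58949344-58949369, plus strand: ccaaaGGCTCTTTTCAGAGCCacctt
Hist2h4, chr3:96262934-96262959, minus strand: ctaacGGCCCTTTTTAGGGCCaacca
Hist1h4n, chr13:21831793-21831818, minus strand: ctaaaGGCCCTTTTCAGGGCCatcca
H2afx, chr9:44335235-44335260, plus strand: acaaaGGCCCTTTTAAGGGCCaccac
The linker histone gene Hist1h1c and the H2B gene Hist3h2ba share the same 16 bases. The annotated transcript of Hist1h1c runs 840 bases past its stem-loop, that of Hist2h4 runs 1257 bases past it, and that of Hist1h4n ends 31 bases after it. Of the 43 clustered genes with a stem-loop, 22 had an annotated end at least 100 bases past it and 21 did not. H2afx, which encodes the DNA damage variant H2A.X, is the variant gene with a stem-loop, and its annotated transcript runs 822 bases past it.

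Reads on the listed genes summed to 13541198 to 15122063 per library, as recovered from the FPKM values (reads on a gene set against library depth and gene length). The summed FPKM of protein-coding genes was lowest in si-circRtn4 library 1, at 255695, and was 266902 to 272523 in the other libraries. Of 13 markers of sympathetic neuroblastoma, 11 had a mean of at least 1 FPKM, and 5 of these fell in si-circRtn4. The others were Nefl, at 0 in all libraries, and Nefm, with 4 reads over all libraries. The largest falls were in Dbh, Chgb and Chga, at log2 fold changes of -2.07, -1.86 and -1.57 and limma adjusted p of 0.00351, 0.00283 and 0.000641. The summed FPKM of the 13 markers was 2516 to 2770 in si-NC and 1082 to 1555 in si-circRtn4. Of 15 markers of other cell types, 2 had a mean of at least 1 FPKM, and Epcam and Aqp4 were at 0 in all libraries. Pdgfrb, a pericyte and fibroblast receptor gene, rose by 0.92 on the log2 scale (limma adjusted p = 0.0316), and this call held in 1 of the 6 fits that left out a library. The summed FPKM of the 15 markers was 8.37 to 10.2 in si-NC and 8.96 to 13.6 in si-circRtn4, and the part of either marker list in the histone values was not tested.

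By FPKM, nearly all histone mRNA counted in these libraries came from the variant genes. Clustered mRNAs usually lack a poly(A) tail, and clustered genes share more sequence with other genes. The part of RNA selection and of shared sequence in this difference was not tested, so it may not be the composition in the cells. The 13 variant genes summed to 1100, 1120 and 1237 FPKM in si-NC libraries 1 to 3 and to 855, 952 and 1056 FPKM in si-circRtn4 libraries 1 to 3. The 67 clustered genes together summed to 68.9, 53.1 and 64.1 FPKM in si-NC and to 43.0, 53.5 and 50.4 FPKM in si-circRtn4. The variant genes thus held 0.334% to 0.454% of protein-coding FPKM in a library, and the clustered genes held 0.0168% to 0.0257%. The variant sums of the groups did not overlap and those of the clustered genes did. The mean si-circRtn4 sum was 82.8% of that in si-NC for the variant genes and 78.9% for the clustered genes. In bulk RNA, fewer cells that express a gene and less RNA per cell cannot be told apart.

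Of the 80 members, 17 reached 1 FPKM on average and were tested, 10 of them variant and 7 clustered. A further 50, all clustered, had reads but a mean under 1 FPKM. The other 13 had 0 reads in every library. These were 10 clustered genes and the variants H2afb1, H2afb2 and H2afb3, which encode short H2A histones known from testis. The clustered gene just inside the filter was Hist1h4n and the one just outside it was Hist1h2ai, with values given below. Of the 67 clustered genes, 36 had fewer than 10 reads over all 6 libraries together.

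**Figure D1:**
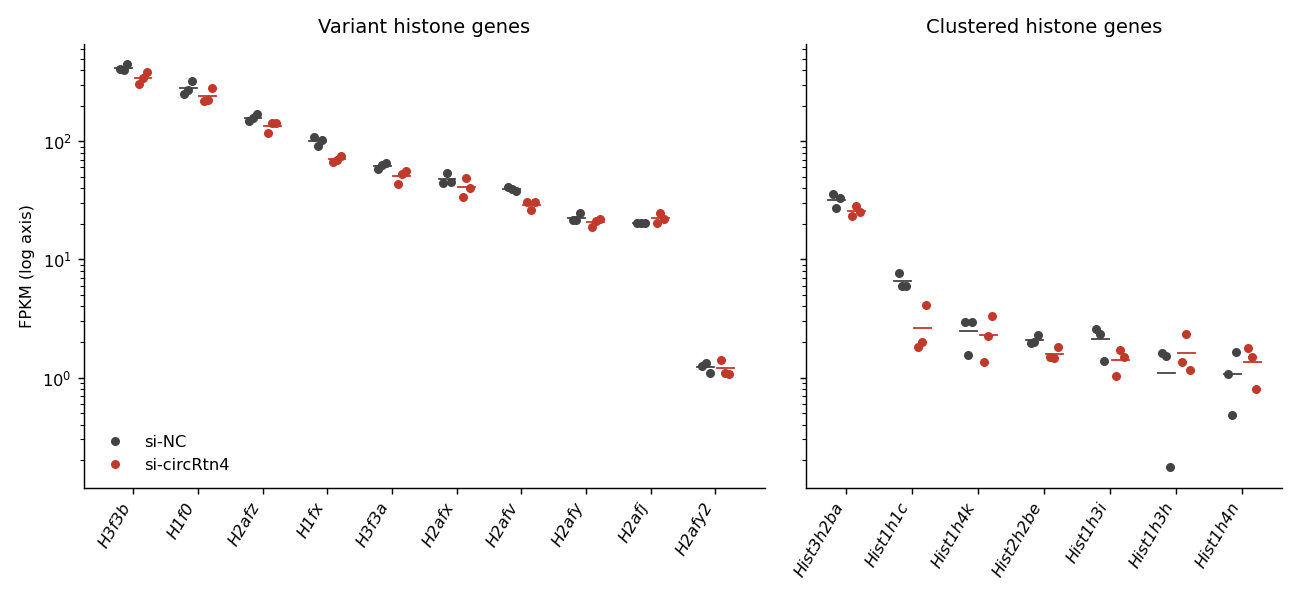
FPKM of the 17 tested histone genes on a log axis, with 1 point per library, the 3 si-NC libraries in grey and the 3 si-circRtn4 libraries in red, and short lines for the group means. Variant genes span means of about 1.2 to 380.6 FPKM, and every clustered gene except Hist3h2ba lies below 10 FPKM.

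In the comparison of si-circRtn4 with si-NC, 3 of the 17 tested members fell and 0 rose at an adjusted p under 0.05. The test was limma on log2(FPKM + 1), adjusted by the Benjamini-Hochberg method over 12749 genes, and fold changes are on that scale, which understates changes of low genes. Among all genes tested, 4.82% fell and 4.36% rose. The members that fell were the variant linker histone gene H1fx, the H2A.Z gene H2afv and the clustered linker histone gene Hist1h1c. At an unadjusted p under 0.05, 7 members fell and 0 rose, against 12.8% and 13.1% of all genes. No member rose in any of the alternative fits. The groups did not overlap in 7 members with lower and 1 with higher values in si-circRtn4, against 15.5% and 16.2% of all genes. The fold change was below 0 in 14 of the 17, and its median was -0.24, against 0.00 over all genes tested. With the replicate number as a block, 6 members fell, against 9.75% of all genes.

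H1fx (ENSMUSG00000044927) encodes the linker histone H1.X, which binds the DNA between nucleosomes and is made outside S phase. It lies on the minus strand at chr6:87980421-87981637 in GRCm38 as a single exon. It was at 109, 90.4 and 102 FPKM in si-NC libraries 1 to 3 and at 67.3, 69.1 and 74.3 FPKM in si-circRtn4 libraries 1 to 3. All si-circRtn4 values lay below the lowest si-NC value. The mean was 100.5 ± 9.30 FPKM (SD, n = 3) in si-NC and 70.2 ± 3.65 FPKM (SD, n = 3) in si-circRtn4. The log2 fold change was -0.51 ± 0.090 (SE), with a 95% interval of -0.72 to -0.30 and a limma adjusted p of 0.0166. It held 1165 to 1997 reads per library. The antisense gene Gm5577, which overlaps H1fx, was at 1.48 to 2.30 FPKM, and whether the counting used strand was not given in the sources used here.

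H2afv (ENSMUSG00000041126) encodes H2A.V, a near copy of the H2A.Z protein, which sits in nucleosomes beside the start sites of genes. It lies on the minus strand at chr11:6427229-6444443, and none of its 50-base windows occurred in another gene. It was at 40.9, 39.2 and 37.7 FPKM in si-NC and at 30.6, 26.0 and 30.5 FPKM in si-circRtn4. The groups were again separate. The mean was 39.2 ± 1.57 FPKM in si-NC and 29.1 ± 2.64 FPKM in si-circRtn4 (SD, n = 3 each). The log2 fold change was -0.42 ± 0.086 (SE), with a 95% interval of -0.62 to -0.22 and a limma adjusted p of 0.0250.

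Hist1h1c (ENSMUSG00000036181) encodes the linker histone H1.2 and is a clustered gene known to make polyadenylated mRNA. It lies on the plus strand at chr13:23738808-23740367, and 8.5% of its 50-base windows occurred in another gene. It was at 7.69, 5.96 and 5.96 FPKM in si-NC and at 1.80, 2.02 and 4.10 FPKM in si-circRtn4, with 130 to 181 reads in the si-NC libraries and 40, 49 and 93 in the si-circRtn4 libraries. No si-circRtn4 value reached the si-NC values, and library 3 stood nearest to them. The mean was 6.53 ± 0.9995 FPKM in si-NC and 2.64 ± 1.27 FPKM in si-circRtn4 (SD, n = 3 each), so si-circRtn4 held 40.4% of the si-NC level. The log2 fold change was -1.09 ± 0.22 (SE), with a 95% interval of -1.62 to -0.57 and a limma adjusted p of 0.0267.

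These 3 calls stood close to the threshold. Over the 6 fits that left out 1 library each, log2 fold changes ranged from -0.58 to -0.45 for H1fx, from -0.46 to -0.35 for H2afv and from -1.37 to -0.93 for Hist1h1c. The limma adjusted p of H1fx was 0.0558 when si-NC replicate 3 was left out, 0.0555 when si-circRtn4 replicate 1 was, and 0.0636 when si-circRtn4 replicate 2 was, and its call held in the other 3 fits. That of H2afv held without si-circRtn4 replicate 3, at an adjusted p of 0.04996, and was lost without each of the other libraries, at 0.0505 to 0.0881. That of Hist1h1c also held without si-circRtn4 replicate 3, at 0.0065, and was lost without each of the others, at 0.0594 to 0.0914. When all 28442 genes above 0 were tested, the adjusted p was 0.0520 for H1fx, 0.0636 for H2afv and 0.106 for Hist1h1c.

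**Figure D2:**
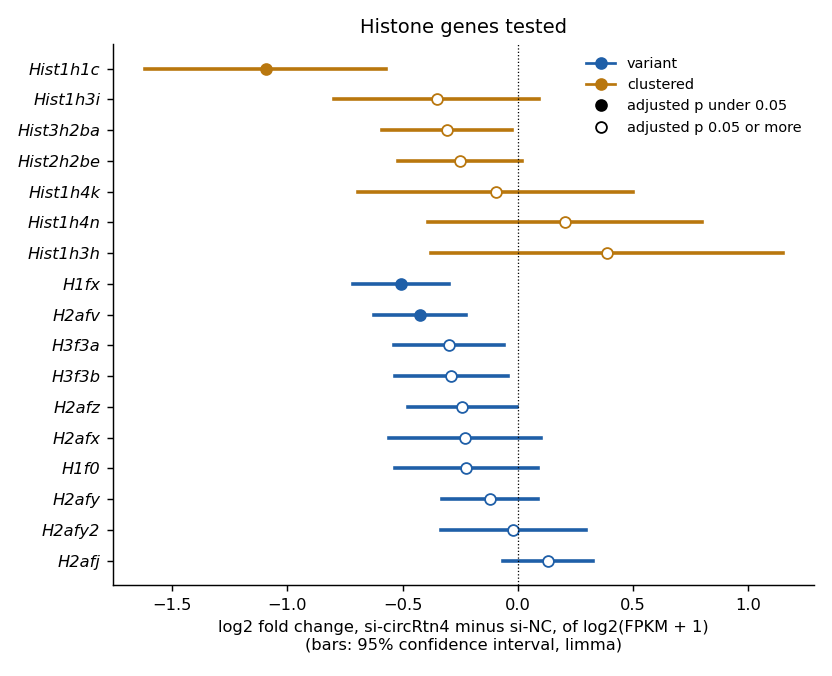
Log2 fold change of log2(FPKM + 1), si-circRtn4 minus si-NC, for the 17 tested histone genes, with 95% confidence intervals from limma, variant genes in blue and clustered genes in orange. Filled points mark H1fx, H2afv and Hist1h1c, the 3 genes with an adjusted p under 0.05, and 14 of the 17 points lie left of 0.

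The replacement histone H3.3 has a pair of genes, H3f3a and H3f3b, which encode the same protein. H3f3b was the most highly expressed histone gene, at 405, 401 and 449 FPKM in si-NC and at 304, 341 and 383 FPKM in si-circRtn4. H3f3a was at 58.6, 62.5 and 65.3 FPKM in si-NC and at 43.5, 52.6 and 55.6 FPKM in si-circRtn4. For both genes, every si-circRtn4 value lay below every si-NC value. The log2 fold changes were -0.29 ± 0.11 (SE) for H3f3b and -0.30 ± 0.10 (SE) for H3f3a. Neither passed the limma test, with adjusted p of 0.133 and 0.119. Both passed it with the replicate block, at adjusted p of 0.0421 and 0.0283. Without si-circRtn4 replicate 1 the fold change of H3f3a was -0.20. In each group library 1 was the lowest or close to the lowest for both genes. The block fit compared libraries with the same number, a pairing taken from these data and not from the labels. Together the pair summed to 464, 463 and 514 FPKM in si-NC and to 348, 394 and 439 FPKM in si-circRtn4. Of the windows of H3f3a, 30.3% occurred in another gene, and the overlapping antisense gene H3f3aos and the overlapping Gm17275 were at no more than 2.09 FPKM.

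H2afz encodes the main H2A.Z protein and is the partner of H2afv. It was at 148, 159 and 169 FPKM in si-NC and at 117, 142 and 143 FPKM in si-circRtn4, with no overlap of the groups. Its log2 fold change of -0.24 ± 0.10 (SE) did not pass the limma test (adjusted p = 0.187), and it passed with the replicate block (adjusted p = 0.0464). It was -0.15 without si-circRtn4 replicate 1. Of its windows, 69.6% occurred in another gene, and whether its reads were shared with these genes was not tested. The H2A.Z pair summed to 188, 198 and 206 FPKM in si-NC and to 148, 168 and 174 FPKM in si-circRtn4, and H2afv held the smaller share of this sum.

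H1f0 encodes H1.0, a linker histone that accumulates in cells that have left the cell cycle. It was the second most highly expressed histone gene, at 253, 272 and 324 FPKM in si-NC and at 218, 225 and 284 FPKM in si-circRtn4. Library 3 was the highest in each group, and si-circRtn4 library 3 lay above both si-NC libraries 1 and 2. The log2 fold change was -0.22 ± 0.13 (SE), with an interval of -0.53 to 0.09 and a limma adjusted p of 0.347. It was -0.12 when si-NC replicate 3 was left out and -0.34 when si-circRtn4 replicate 3 was. The test therefore passed for H1fx and Hist1h1c among the expressed linker histone genes and not for H1f0, and the difference between these genes was not tested.

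The macroH2A genes carry a large extra domain outside the nucleosome. H2afy was at 21.4, 21.6 and 24.5 FPKM in si-NC and at 18.8, 20.9 and 22.1 FPKM in si-circRtn4, and its log2 fold change was -0.12 ± 0.089 (SE, limma adjusted p = 0.454). It was -0.059 when either si-NC replicate 3 or si-circRtn4 replicate 1 was left out. H2afy2 was at 1.08 to 1.34 FPKM in si-NC and at 1.08 to 1.42 FPKM in si-circRtn4, with a log2 fold change of -0.02 ± 0.13 (SE, adjusted p = 0.948). The groups overlapped in both. The protein-coding gene Aifm2, on the other strand, overlaps H2afy2 and was at 14.1 to 17.6 FPKM.

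H2afj encodes H2A.J, a variant known from senescent cells, and was the variant gene with the highest fold change. It was at 20.2, 20.4 and 20.3 FPKM in si-NC and at 20.5, 24.8 and 21.9 FPKM in si-circRtn4. All si-circRtn4 values lay above all si-NC values, and the log2 fold change of 0.13 ± 0.084 (SE) did not pass the test (limma adjusted p = 0.373). Without si-circRtn4 replicate 2 it was 0.060.

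By mean level the variant genes ran in the order H3f3b, H1f0, H2afz, H1fx, H3f3a, H2afx, H2afv, H2afy, H2afj and H2afy2. In si-NC, the ranges of no 2 neighbours in this order overlapped. In si-circRtn4, the ranges of H3f3a and H2afx overlapped, as did those of H2afy and H2afj. FPKM was scaled by the length of all annotated exons of a gene together, which was 6809 bases for H2afy and 1831 for H2afj. The level of a gene whose cells use a shorter transcript is then understated, so the order of such genes, that of H2afy and H2afj included, depends on this length.

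The clustered genes with the highest levels are described next. Hist3h2ba, an H2B gene of the small cluster on chromosome 11, was at 35.6, 27.0 and 33.3 FPKM in si-NC and at 23.1, 28.5 and 25.1 FPKM in si-circRtn4. This gene alone made up more than the other 66 clustered genes together in 5 of the 6 libraries, which summed to 33.3, 26.1 and 30.9 FPKM in si-NC and to 19.9, 25.0 and 25.3 FPKM in si-circRtn4. The groups overlapped for Hist3h2ba through si-circRtn4 library 2, and its log2 fold change of -0.31 ± 0.12 (SE) did not pass the limma test (adjusted p = 0.163). Hist2h2be, an H2B gene on chromosome 3 that is known to make polyadenylated mRNA, was at 1.97, 1.99 and 2.29 FPKM in si-NC and at 1.50, 1.47 and 1.81 FPKM in si-circRtn4. Its groups did not overlap, but its log2 fold change of -0.25 ± 0.12 (SE) did not pass (adjusted p = 0.225). No 50-base window of Hist2h2be occurred in another gene, and no stem-loop was found in its longest annotated 3′ UTR.

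The 4 other tested clustered genes encode the core histones H3 and H4 and rested on few reads. Hist1h3i was at 2.58, 2.36 and 1.39 FPKM in si-NC and at 1.03, 1.72 and 1.51 FPKM in si-circRtn4, on 6 to 16 reads per library. Hist1h3h was at 1.61, 1.52 and 0.174 FPKM in si-NC and at 1.37, 2.35 and 1.17 FPKM in si-circRtn4, and its lowest value stood for 1 read. The log2 fold change was -0.35 ± 0.19 (SE) for Hist1h3i and 0.39 ± 0.33 (SE) for Hist1h3h, and neither passed the limma test (adjusted p = 0.297 and 0.514). The value of Hist1h3h rested on 1 library, since it was 0.0092 without si-NC replicate 3, and it was 0.90 with limma-voom. That of Hist1h3i was -0.53 when si-NC replicate 3 was left out and -0.23 when si-circRtn4 replicate 1 was. Hist1h4k was at 1.56 to 2.98 FPKM in si-NC and at 1.35 to 3.31 FPKM in si-circRtn4. Hist1h4n was at 0.484 to 1.66 FPKM in si-NC and at 0.800 to 1.80 FPKM in si-circRtn4. The groups overlapped in all 4 genes, and the H4 genes had adjusted p of 0.856 and 0.672. Between 71.5% and 93.9% of the windows of these 4 genes occurred in another gene. Their reads may thus not belong to 1 copy, and how reads from such windows were counted was not tested.

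The clustered genes under 1 FPKM were described without weight on single values. The 3 with the highest levels were Hist1h2ai, at 0.177 to 1.82 FPKM in si-NC and 0.654 to 1.05 FPKM in si-circRtn4, Hist1h4j, at 0.685 to 1.11 FPKM in si-NC and 0.622 to 1.49 FPKM in si-circRtn4, and Hist1h4i. When all genes above 0 were tested with limma, 0 of these 50 members passed at an adjusted p under 0.05, against 0.325% of the genes of this level. At an unadjusted p under 0.05, 4 were lower and 2 were higher, against 3.38% and 3.87%. The groups did not overlap in 4 with lower values and 1 with higher values, against 5.07% and 5.21%. No other tool was run on these genes.

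Of these 5 separated genes, Hist1h2bc, Hist2h4 and Hist1h2ao were named after their values were seen. Hist1h2bc, an H2B gene known to make polyadenylated mRNA, was at 1.03, 1.68 and 1.30 FPKM in si-NC and at 0.122, 0.667 and 0.357 FPKM in si-circRtn4, on 87 reads in all. Hist2h4, whose stem-loop is printed above, was at 0.894, 0.468 and 0.745 FPKM in si-NC and at 0.129, 0.237 and 0.380 FPKM in si-circRtn4, on 68 reads. Hist1h4i was at 1.28, 0.859 and 1.38 FPKM in si-NC and at 0.580, 0.530 and 0.757 FPKM in si-circRtn4, on 57 reads. Hist3h2a, the H2A neighbour of Hist3h2ba on chromosome 11, was at 0.618, 0.646 and 0.633 FPKM in si-NC and at 0.393, 0.479 and 0.224 FPKM in si-circRtn4. The gene with separate and higher values, Hist1h2ao, was at 0.552, 0.578 and 0.596 FPKM in si-NC and at 1.32, 0.937 and 1.003 FPKM in si-circRtn4, and 93.5% of its windows occurred in other genes. Of the 4 with lower values, the annotated transcripts of Hist2h4, Hist1h4i and Hist3h2a run at least 330 bases past the stem-loop. No stem-loop was found in the longest annotated 3′ UTR of Hist1h2bc. The annotated end of Hist1h2ao lies 31 bases past its stem-loop. Among all 43 clustered genes with a stem-loop, 22 had an annotated end at least 100 bases past it. Hist1h4j and Hist1h1e, also under 1 FPKM, run 385 and 1153 bases past theirs, and their groups overlapped. The 5 genes were set apart by their values, so whether the 3′ end goes with the change was not tested.

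By histone family, the clustered H2B genes summed highest and were carried by Hist3h2ba. They reached 41.2, 33.3 and 39.3 FPKM in si-NC and 26.7, 32.3 and 29.3 FPKM in si-circRtn4, with no overlap. Without Hist3h2ba, the other 17 H2B genes were at 5.59, 6.30 and 6.05 FPKM in si-NC and at 3.57, 3.80 and 4.17 FPKM in si-circRtn4, also with no overlap. The 6 clustered H1 genes summed to 10.2, 7.38 and 7.74 FPKM in si-NC and to 3.21, 3.21 and 5.76 FPKM in si-circRtn4. Hist1h1c made up most of this sum, and the other 5 H1 genes were at 1.42 to 2.48 FPKM in si-NC and at 1.19 to 1.66 FPKM in si-circRtn4, where the groups overlapped. The remaining families overlapped between groups. The si-circRtn4 mean was 93.6% of si-NC for H2A, 107.7% for H3 and 96.0% for H4, on 24 to 89 reads per library and family. These sums are descriptions and were not tested.

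By annotated 3′ end, the 22 clustered genes whose transcripts run at least 100 bases past the stem-loop summed to 50.1, 37.1 and 45.5 FPKM in si-NC and to 29.0, 35.6 and 32.4 FPKM in si-circRtn4. All si-circRtn4 sums lay below all si-NC sums. The 21 genes with a stem-loop and no such end summed to 3.52, 3.56 and 5.22 FPKM in si-NC and to 4.63, 6.19 and 4.94 FPKM in si-circRtn4, and these overlapped. The former held 73.1% of the si-NC mean in si-circRtn4 and the latter 128.2%, on as few as 25 reads per library for the latter. Without Hist3h2ba and Hist1h1c the former were at 6.77, 4.13 and 6.21 FPKM in si-NC and at 4.04, 5.08 and 3.16 FPKM in si-circRtn4, and their groups then overlapped. The 24 genes without a found stem-loop were at 12.5 to 15.3 FPKM in si-NC and at 9.44 to 13.1 FPKM in si-circRtn4. These sums were not tested either.

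**Figure D3:**
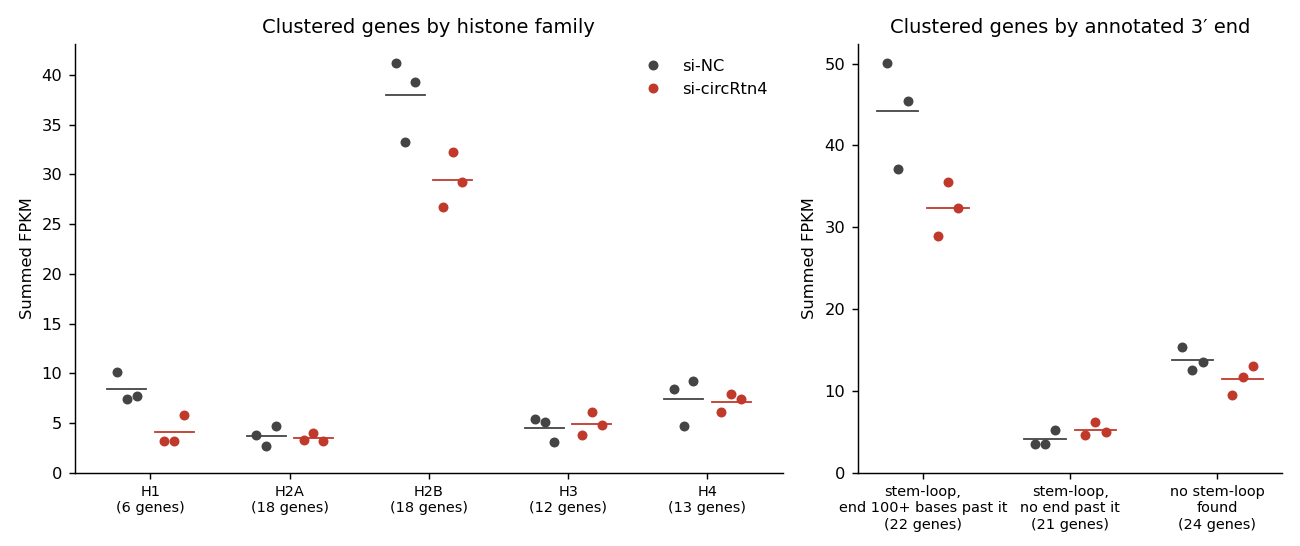
Summed FPKM of the clustered histone genes in each library, by histone family on the left and by annotated 3′ end on the right, with si-NC in grey, si-circRtn4 in red and short lines for the group means. The H1 genes, the H2B genes and the genes whose transcripts run past the stem-loop show separate groups, and the H2A, H3 and H4 genes and those ending near the stem-loop overlap.

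Sequence shared with other genes limits what single clustered genes can show. Over the 67 clustered genes, a median of 54.1% of the 50-base windows of the annotated transcripts occurred in another gene, whether a copy elsewhere or an overlapping gene, and a median of 47.0% occurred in another histone member. These shares were over 90% in 13 and 7 genes. Over the 13 variant genes the medians were 9.7% and 0%. Of the 10 clustered genes with 0 reads, 5 had over 90% of their windows in another gene and 1 in another histone member. Whether a gene listed at 0 lost reads in the counting was not tested.

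The promoters of both linker histone genes that fell are printed next, since Hist1h1c and H1fx belong to the same protein family but to different gene groups. The 300 bases run from 250 before to 50 after the start in RefSeq (GRCm38.p6). Capitals mark the CCAAT box at position -54 and the H1 box AAACACA at position -112 of Hist1h1c. The H1fx sequence holds no letters in capitals, since none of the motifs searched was found in it.
Hist1h1c, chr13:23738557-23738856, plus strand: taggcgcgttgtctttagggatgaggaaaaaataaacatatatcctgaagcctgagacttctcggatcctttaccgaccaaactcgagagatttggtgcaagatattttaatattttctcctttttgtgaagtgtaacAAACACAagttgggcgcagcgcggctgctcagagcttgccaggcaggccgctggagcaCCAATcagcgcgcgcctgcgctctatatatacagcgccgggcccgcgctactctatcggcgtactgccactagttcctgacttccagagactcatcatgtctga
H1fx, chr6:87981433-87981732, minus strand: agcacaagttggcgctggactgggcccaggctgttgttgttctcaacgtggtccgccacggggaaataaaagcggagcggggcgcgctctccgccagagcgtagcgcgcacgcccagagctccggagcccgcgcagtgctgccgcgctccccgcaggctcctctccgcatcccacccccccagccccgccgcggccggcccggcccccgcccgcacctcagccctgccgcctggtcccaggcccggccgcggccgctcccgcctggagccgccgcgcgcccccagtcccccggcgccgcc
Promoters of 62 clustered and 12 variant genes were matched in RefSeq. Each motif was searched on both strands, and TATAAA and AAACACA can share bases. The TATA box TATAAA was found in 56.5% of the clustered and 8.3% of the variant promoters, against 14.16% of all 27025 promoters. The CCAAT box CCAAT, which binds the factor NF-Y, was found in 85.5% and 75.0%, against 37.92%. The H1 box AAACACA, an element known from linker histone promoters, was found in 5 of the 6 clustered H1 promoters, against 7.14% of all promoters. The octamer ATTTGCAT, which binds the POU factor OCT1 and is known from H2B promoters, was found in 7 of the 16 clustered H2B promoters, against 1.75%. It was found in 14 of all 62 clustered promoters. The H2A promoters of Hist1h2aa, Hist1h2ab, Hist1h2ac, Hist1h2ae and Hist1h2ah hold it too. Those of Hist1h2aa, Hist1h2ae and Hist1h2ah overlap the H2B promoters of Hist1h2ba, Hist1h2bg and Hist1h2bk, on the other strand. In each of these pairs the octamer is the same bases, and a match in overlapping promoters was counted for each promoter. The promoter of Hist1h2ab overlaps no matched H2B promoter, so the octamer was not confined to H2B promoters. Motif matches are descriptions of the letters and not binding sites.

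**Figure D4:**
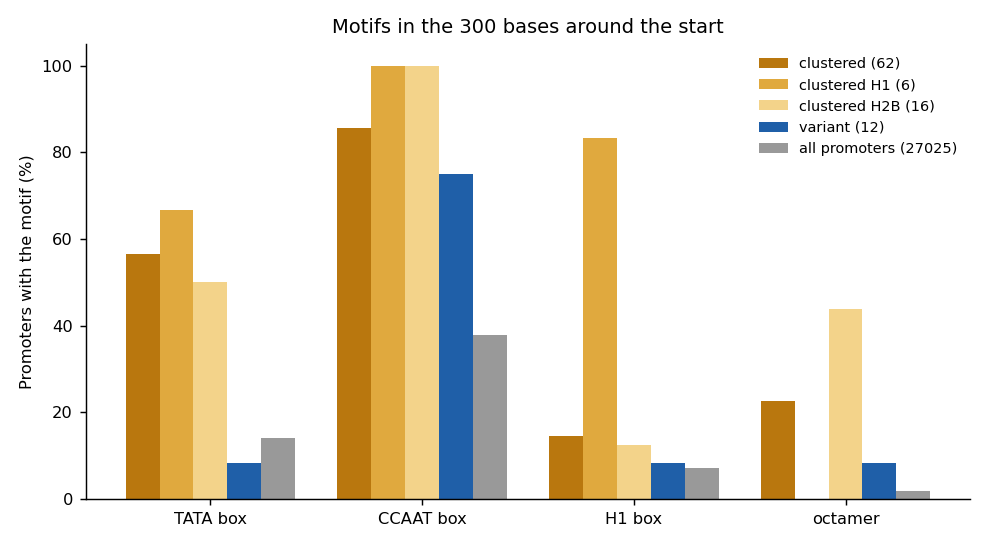
Share of promoters that hold each of 4 motifs on either strand, in percent, for 62 clustered promoters, the 6 H1 and 16 H2B promoters among them, 12 variant promoters and all 27025 promoters. Of the groups shown, the H1 box is most common in the H1 promoters, at 83.3%, and the octamer in the H2B promoters, at 43.8%. The H2A promoters are not shown apart.

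Since circRtn4 was studied as a sponge of miR-24-3p, the longest 3′ UTR annotated for each member was searched for sites of this microRNA. Capitals mark the seed, bases 2 to 8, in the mature sequence from RefSeq.
miR-24-3p: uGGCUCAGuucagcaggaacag
The 7-base site CTGAGCC was found in 1 of the 10 variant and 3 of the 54 clustered genes with an annotated 3′ UTR, against 16.2% of the 21025 protein-coding genes with a 3′ UTR. The annotated 3′ UTRs of these clustered genes were 1 to 4931 bases long, and a short one has little room for a site. The shares were not adjusted for length. Capitals mark the site and, where it follows, the A that makes an 8mer.
H2afx, chr9:44335267-44335295, plus strand: cacagaaagagCTGAGCCActtcgggctg
H2afx, chr9:44335948-44335976, plus strand: ccctgtctggaCTGAGCCtctggcttctg
Hist3h2a, chr11:58955207-58955235, plus strand: agcgctgtacaCTGAGCCtgtcgccagtt
Hist1h1d, chr13:23555815-23555843, plus strand: attcaaaagagCTGAGCCtttttctggtt
Hist1h1d, chr13:23560105-23560133, plus strand: gatcttaacccCTGAGCCAtctctctagc
Hist2h3c1, chr3:96248435-96248463, plus strand: gatgctatttgCTGAGCCAtctcttcagc
H2afx, a known target of this microRNA in blood cells, was the tested member with sites. It was at 44.1, 54.0 and 45.1 FPKM in si-NC and at 33.6, 48.6 and 40.4 FPKM in si-circRtn4. The groups overlapped, since si-circRtn4 library 2 lay above si-NC libraries 1 and 3. Its log2 fold change was -0.23 ± 0.14 (SE), with an interval of -0.56 to 0.10 and a limma adjusted p of 0.362. It was -0.14 without si-NC replicate 2, -0.099 without si-circRtn4 replicate 1 and -0.36 without si-circRtn4 replicate 2. The other 3 genes with a site were under 1 FPKM. Hist3h2a is described above, Hist1h1d was at 0.045 to 0.14 FPKM in si-NC and 0.038 to 0.087 FPKM in si-circRtn4, and Hist2h3c1 had 0 reads. The members that fell, H1fx, H2afv and Hist1h1c, held no such site in their longest annotated 3′ UTR.

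The genes that serve histone mRNA and histone proteins were compared as lists. Of 20 genes for the synthesis and processing of histone mRNA, 18 were tested, and the median log2 fold change was 0.02. Of these, 1 fell and 0 rose, against 4.82% and 4.36% of all genes, and 2 were lower and 0 higher at an unadjusted p under 0.05, against 12.8% and 13.1%. The list thus gave calls near or below the share over all genes. The gene that fell was Slbp, which encodes the stem-loop binding protein. It was at 8.55, 10.2 and 8.77 FPKM in si-NC and at 7.16, 6.41 and 6.52 FPKM in si-circRtn4, so the groups were separate. Its log2 fold change was -0.40 ± 0.089 (SE, limma adjusted p = 0.0334). The call was lost when protein-coding sums were made equal (adjusted p = 0.0557), when all genes above 0 were tested (adjusted p = 0.0919), and without each library except si-NC replicate 1, at adjusted p of 0.0617 to 0.114.

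Of 33 histone chaperones and deposition factors, which carry histones to DNA, 32 were tested, and none passed the limma test in either direction. At an unadjusted p under 0.05, 3 were higher and 2 lower, against 13.1% and 12.8% of all genes, and the median log2 fold change was 0.01. With limma-voom, 1 of the 50 tested genes of both lists rose and 2 fell. With the replicate block, 3 rose and 3 fell, against 9.29% and 9.75% of all genes.

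Clustered histone mRNA is made in S phase, so 29 S phase genes were set beside it. All 29 were tested, and none passed the limma test in either direction. At an unadjusted p under 0.05, 2 were higher and 0 lower, against 13.1% and 12.8% of all genes, the median log2 fold change was 0.01, and limma-voom also called 0. With the replicate block 2 rose, against 9.29% of all genes. Their summed FPKM was 538 to 821 in si-NC and 609 to 788 in si-circRtn4, and the groups overlapped.

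**Figure D5:**
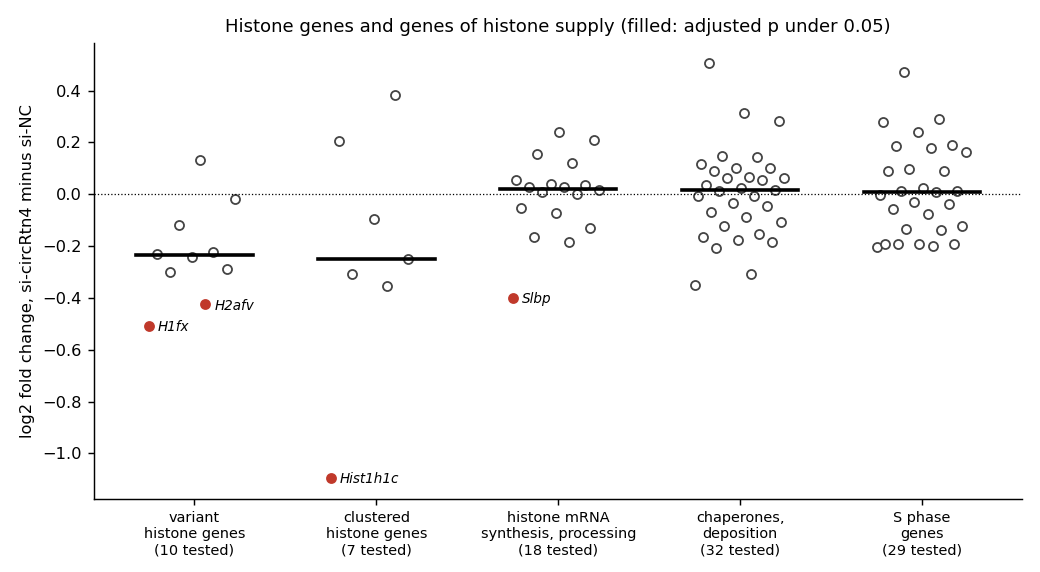
Log2 fold change of log2(FPKM + 1), si-circRtn4 minus si-NC, for each tested gene of 5 groups, with filled red points for an adjusted p under 0.05 and black lines for group medians. The medians are -0.24 for the 10 variant genes and -0.25 for the 7 clustered genes, and 0.01 to 0.02 for the 3 lists.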

How the data were processed

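RNA of N2a cells was sequenced in 6 libraries, 3 with si-NC and 3 with si-circRtn4, grouped by the sample titles. Values are FPKM, which the authors deposited for each gene beside its length and coordinates. The submitters' processing notes name Bowtie 0.12.2 and the builds mm8 and mm9, with no role. Of the genes listed, 98.1% had the coordinates of GENCODE M21 on GRCm38, so GRCm38 is given as the build. Aligner settings, counting tool and strand use were not given in the sources used here. Another 6 columns, of samples outside the series, were left aside.

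The product of FPKM and gene length was divided by the value of 1 read in its library, and 100% of the results were whole reads (tolerance 0.01). Reads were used for depth and for limma-voom only. Genes that averaged 1 FPKM or more were taken to log2(FPKM + 1) and compared by limma 3.58.1 (R 4.3.3, lmFit and eBayes with trend), with Benjamini-Hochberg adjustment over 12749 genes. Two-sided exact permutation tests of 3 libraries against 3 cannot go below 0.1 and reached that value wherever groups did not overlap. In simulated data, 88.1% of 194 genes changed by a fold of 2 among 12795 tested were recovered, and 3.4% of calls were false. The simulated reads had the same set dispersion in every gene, which was not fitted to these libraries. Recovery of smaller changes, such as those of nearly all tested members, was not simulated, nor was recovery given apart for genes on few reads.

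Replicate numbers are shared between the groups. Correlations of the deviations from group means were 0.331, 0.19 and 0.226 within a number and -0.228 to 0.009 across numbers, so the fit with a replicate block treated the numbers as pairs. This pairing comes from the data and not from the labels. Alternatives were a pseudocount of 0.1, all genes above 0, a mean of at least 5 FPKM, equal protein-coding sums, quantile normalization, limma-voom on recovered reads, the replicate block and leaving out each library.

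Named were every tested variant gene, the clustered genes that passed, the 10 highest, the 3 largest rises and falls, members with a miR-24-3p site, and the 3 largest rises and falls that passed in each list. Members and lists were chosen with earlier results of these data known. Zcchc6 was not found in the table. Stem-loops, miR-24-3p sites and shared windows were read from GENCODE M21 transcripts and promoters from RefSeq, with Python 3.11.15, numpy 2.4.6, pandas 2.3.3 and matplotlib 3.10.9.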

Additional observations from a re-analysis of the deposited data

How the results depend on the processing

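The counts of called histone genes were small and moved with the settings, mostly in the number of calls and not in direction. When all genes above 0 were tested, 0 clustered and 0 variant genes fell, and over all genes 210 rose and 261 fell, against 556 and 615. With a mean of at least 5 FPKM, 0 clustered genes fell, since Hist1h1c was then not tested. With the replicate block 5 variant genes fell (H2afz, H3f3a and H3f3b were added), and over all genes 1185 rose and 1243 fell, and it changed no other call of a member. Quantile normalization also called H3f3b (adjusted p = 0.0238), and limma-voom called 903 genes higher and 722 lower. Without 1 library at a time, 0 to 1 clustered and 0 to 2 variant genes fell, and over all genes 163 to 407 rose and 217 to 419 fell. For the listed genes of histone mRNA, chaperones and deposition, 0 rose and 1 fell. Limma-voom gave 1 and 2, the replicate block 3 and 3, equal protein-coding sums and all genes above 0 gave 0 falls each, and leaving out 1 library gave 0 to 1 falls. Of the S phase genes, 2 rose with the replicate block.

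The sign of genes close to 0 turned when 1 library was left out. The log2 fold change of Hist1h4k was 0.0097, 0.011 and 0.13 without si-NC replicate 1, si-NC replicate 3 and si-circRtn4 replicate 1. That of Hist1h4n was -0.017 without si-NC replicate 2 and at most 0.40 without another library. That of H2afy2 was at least -0.092 without 1 library, and 0.017, 0.013 and 0.019 without si-NC replicate 2, si-circRtn4 replicate 2 and si-circRtn4 replicate 3. The cause of these moves was not tested. The median over the tested members stayed between -0.31 and -0.15 in all 13 alternatives. Few reads limit what the clustered genes can show, since their tested members had as few as 1 read in a library. Why these reads were few was not tested.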
